A study of Mus musculus with 15 samples.

Results

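Untreated colon adenomas were compared with the normal colon epithelium of mice that had no tumor. The comparison rests on 7 of the 15 deposited arrays, chosen by their labels: 3 arrays of untreated adenoma and 4 arrays of epithelium from tumor-free mice. All animals were male Apc+/Min-FCCC mice on the C57BL/6J background, colonoscoped at 6 to 8 weeks of age, and all carried the Min mutation in 1 copy of Apc, so neither group is wild type. The adenomas came from tumor-bearing mice fed plain chow, while the tumor-free mice received chow with 100 ppm atorvastatin, an inhibitor of cholesterol synthesis, for 7 days. The untreated tumor-free mice named in the study's design were not analysed here. Presence of a tumor, tissue and atorvastatin therefore change together, and their parts in any difference cannot be told apart. RNA (10 ng per sample) came from laser-microdissected colon cells and was amplified before hybridisation to single-colour Agilent whole mouse genome arrays. The label text calls the arrays biological replicates without tying them to animals.

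Apc is the scaffold of the complex that marks beta-catenin for destruction. When its function is lost, beta-catenin accumulates, joins Tcf/Lef factors on DNA and switches on the Wnt target genes that normally mark the dividing cells at the base of the crypt. Colonocytes leaving that zone normally switch to absorbing salt and water, secreting mucus and hormones, and metabolising foreign compounds, and intestinal adenomas of Apc-mutant mice are known for holding the crypt-base programme.

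Some arrays were closer to each other than 2 spots of 1 array. Adenoma arrays 1 and 2 differed by an SD of 0.09 (log2) against a spot noise of 0.19, and tumor-free arrays 3 and 4 by 0.17 against 0.22. Each pair was averaged and counted as 1 sample, which left 2 adenoma and 3 tumor-free samples. Tumor-free array 2 and array 2 of the epithelium of tumor-bearing mice, 2 samples with different labels, correlated at 0.994, with an SD of 0.18 and a spot noise of 0.18. Counts without both of these arrays are given after the totals below. Between 66.3% and 75.5% of spots were well above background on the 7 arrays. Outlier flags covered 9.12% of spots on adenoma array 2 and at most 0.69% on the others. No scan date and no slide held arrays of both groups, so scan date or slide and group cannot be told apart. Levels below are log2 intensities relative to the 75th percentile of their array. Adenoma values are listed as the sample of arrays 1 and 2 and then array 3, and tumor-free values as array 1, array 2 and then the sample of arrays 3 and 4.

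Of 18605 features tested, 765 were higher in untreated adenoma (4.11%) and 1047 were lower (5.63%), by limma with Benjamini-Hochberg adjustment at 0.05, together 1812 features (9.74%). In all 1812 the 2 groups did not overlap, which was true of 47.9% of the features tested. The median difference over all features was −0.20 on the log2 scale, the background against which the gene lists below can be read. All called genes differed by at least 2-fold, and 204 by under 4-fold. The median absolute difference was 0.54 between the 2 adenoma samples, 0.57 to 0.62 among the tumor-free samples and 0.74 to 0.95 between groups. Leaving out adenoma array 3 reduced the calls to 290 higher and 274 lower, leaving out adenoma arrays 1 and 2 to 442 and 519, leaving out tumor-free array 1 to 593 and 695, and leaving out tumor-free array 2 to 512 and 594. Called in all 5 fits that left out 1 sample each were 217 of the higher and 217 of the lower genes. Without the near-identical arrays of different label there were 495 higher and 569 lower genes, with 13 Wnt targets, 13 inflammatory genes, 9 matrix genes and 8 neutrophil genes higher and 12 xenobiotic, 9 enteroendocrine and 8 ion transport genes lower. In that fit no cell cycle, cholesterol, respiratory chain, glycolysis or Hox gene was called. It called 1 prostaglandin gene higher, and 2 smooth muscle, 2 fatty acid, 1 goblet and 3 B and plasma cell genes lower, and of the fibroblast list 1 gene lower and none higher.

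The tissue labels were checked against epithelial markers. Epcam, an adhesion molecule of epithelial cells, stood at 5.78 and 5.90 in adenoma and at 6.01, 5.83 and 5.22 in tumor-free epithelium, and the groups overlapped. Krt8, a keratin of simple epithelia, had levels of 6.14 and 6.37 in adenoma against 6.86, 6.79 and 6.41 in tumor-free epithelium, a difference of −0.43 ± 0.41 (SE) that did not pass (limma adjusted p = 0.551). Cdh1, which encodes E-cadherin, gave −0.57 ± 0.42 (limma adjusted p = 0.44). All 3 markers were high on every array.

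The largest differences joined antimicrobial, crypt-base and inflammatory genes on the high side with absorptive, hormone and drug-metabolism genes on the low side. Reg3b, a secreted antibacterial lectin, was at 5.96 and 4.58 in adenoma and at −7.31, −8.66 and −7.88 in tumor-free epithelium, where no array was well above background. It was at least 3830-fold higher in adenoma (limma adjusted p = 0.000602). Mptx1, a pentraxin of the intestinal mucosa, showed the opposite pattern, with levels of −8.55 and −7.10 in adenoma and 6.66, 6.60 and 6.19 in tumor-free epithelium. No adenoma array measured Mptx1 above background, and it was at least 9070-fold lower in adenoma (limma adjusted p = 1.16e-06). Such bounds compare the bright group with the detection limit of the dim arrays. The probes for Reg3b and Mptx1 lie at chr6:78391237-78391296 and chr1:174299277-174299336 in the coordinates of the array design, mouse build mm7.

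**Figure D1:**
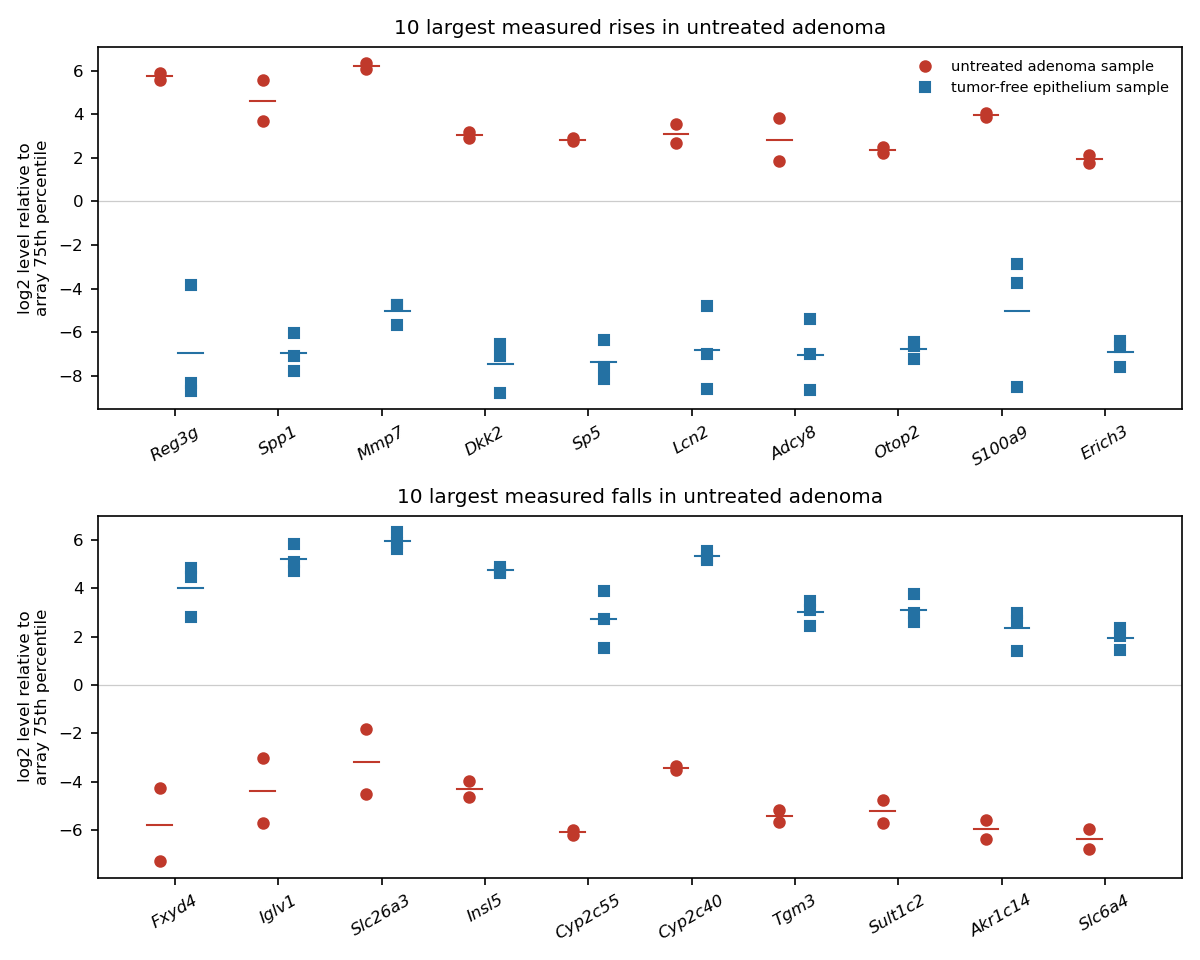
Log2 level relative to the array 75th percentile (vertical axis) of the 10 genes with the largest rise and the 10 with the largest fall among called genes measured above background on at least 1 array of both groups. Circles are the 2 untreated adenoma samples, squares the 3 tumor-free epithelium samples, and short lines the group means. In all 20 genes the groups are far apart, while Reg3g, Lcn2 and S100a9 vary widely among tumor-free samples. Fxyd4 passed narrowly (−9.81 ± 2.69, limma adjusted p = 0.0476), and its call was lost when any 1 tumor-free sample was left out.

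Targets of the Wnt pathway were mostly higher in adenoma. Of 24 tested, 17 were higher in adenoma and none lower (70.8% higher, against 4.11% of all features), with a list median of 3.33. A gene entered the test if 1 group was above background on every array, so genes that entered through the brighter group alone had to differ. Among the 19 Wnt targets above background on every array of both groups, 12 were higher. The leading members were Mmp7, a matrix metalloproteinase, Dkk2, a secreted modulator of Wnt receptors, Sp5, a zinc finger factor, and Notum, an enzyme that strips the lipid from Wnt proteins. These genes are known Wnt targets in mouse or human cells, and the list was drawn up with results of these arrays known. Short DNA motifs of the Tcf/Lef type were therefore looked up in their promoters, to show where such a sequence lies next to the start of the genes with some of the largest rises.

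The motif CTTTGAT and its reverse complement ATCAAAG were searched in RefSeq promoter windows of assembly GRCm38.p6, which run from 250 bases before to 50 after each start. Of 12 called Wnt targets with a window, 3 held it, Mmp7, Sp5 and Tnfrsf19, in 4 of their group's 19 windows. Both Mmp7 windows overlap and hold the same site, so the count of windows includes that site more than once. Among all genes with a window, 4.29% held the motif (1160 of 27025), and 3.73% of all windows did. The windows are printed 5′ to 3′ on the gene's strand with the motif in capitals. The Sp5 window is chr2:70474673-70474972 (plus strand), the Mmp7 window chr9:7691840-7692139 (plus strand) and the Tnfrsf19 window chr14:61037938-61038237 (minus strand). A match is a stretch of letters and not a measured binding site.
Sp5: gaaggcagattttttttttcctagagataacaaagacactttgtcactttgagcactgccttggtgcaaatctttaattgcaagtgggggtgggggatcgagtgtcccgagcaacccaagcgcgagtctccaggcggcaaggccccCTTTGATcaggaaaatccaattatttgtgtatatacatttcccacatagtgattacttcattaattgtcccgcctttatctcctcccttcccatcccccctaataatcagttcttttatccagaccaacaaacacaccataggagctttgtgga
Mmp7: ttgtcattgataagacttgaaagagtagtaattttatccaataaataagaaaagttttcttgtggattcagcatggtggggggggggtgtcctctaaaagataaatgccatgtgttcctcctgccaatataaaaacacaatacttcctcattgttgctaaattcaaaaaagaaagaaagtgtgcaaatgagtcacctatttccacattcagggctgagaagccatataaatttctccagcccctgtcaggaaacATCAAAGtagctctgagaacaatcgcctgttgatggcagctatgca
Tnfrsf19: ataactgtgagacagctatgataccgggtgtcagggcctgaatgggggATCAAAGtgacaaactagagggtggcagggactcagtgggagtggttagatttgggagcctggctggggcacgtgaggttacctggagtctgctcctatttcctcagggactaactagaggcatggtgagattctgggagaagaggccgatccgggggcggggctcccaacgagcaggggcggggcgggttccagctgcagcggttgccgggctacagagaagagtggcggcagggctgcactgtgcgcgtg

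Mmp7 had levels of 6.06 and 6.33 in adenoma against −4.74, −5.67 and −4.73 in tumor-free epithelium, a rise of 11.24 ± 0.98 (log2, SE; limma adjusted p = 0.000166). Sp5 was at 2.76 and 2.90 in adenoma and at −6.38, −7.58 and −8.13 in tumor-free epithelium, a rise of 10.19 ± 1.29 (adjusted p = 0.00122 in the same limma fit). Dkk2 was at 3.18 and 2.91 in adenoma and at −7.07, −8.78 and −6.56 in tumor-free epithelium, a rise of 10.51 ± 0.65 (limma adjusted p = 2.3e-05). In these 3 genes the adenoma samples lay close together and far above every tumor-free sample. Mmp7 was well above background on all 4 tumor-free arrays, Sp5 and Dkk2 on 1 of them. Notum rose by 7.64 ± 0.53, with adenoma levels of 1.86 and 1.71 and tumor-free levels of −5.45, −6.23 and −5.88. Nkd1, a feedback inhibitor of Wnt signalling, rose by 6.26 ± 0.84, and Prox1, a homeobox factor, by 6.35 ± 0.89. Apcdd1, a membrane inhibitor of Wnt signalling, rose by 4.93 ± 0.53 and Wif1, a secreted Wnt inhibitor, by 5.28 on the log2 scale. Other inhibitors did not pass: Nkd2 differed by 1.25 and the receptor-degrading ligase Rnf43 by 1.81.

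Lgr5, the R-spondin receptor that marks intestinal stem cells, was at 4.09 and 4.70 in adenoma and at 0.75, 0.05 and 0.79 in tumor-free epithelium, a rise of 3.86 ± 0.51 (limma adjusted p = 0.00158). Axin2, a scaffold of the beta-catenin destruction complex, was at 3.30 and 2.84 in adenoma against 0.02, 0.75 and 0.25, a rise of 2.73 ± 0.45 (limma adjusted p = 0.00488). Both groups were far apart for each gene. With the median of all probes of a gene, the Lgr5 rise was 2.39. Myc, a growth-promoting transcription factor, rose by 2.46 ± 0.39, and the Tcf factors Tcf7 and Lef1 rose by 3.38 and 3.54. The guidance receptors Ephb2 and Ephb3 rose by 2.06 and 1.65. Not all targets passed: Ccnd1, which encodes cyclin D1, was at 2.40 and 3.73 in adenoma and at 2.49, 1.03 and 0.84 in tumor-free epithelium, and the groups overlapped (limma adjusted p = 0.192). Cd44, a hyaluronan receptor, differed by 3.28 ± 0.93 without passing (limma adjusted p = 0.0533). Ascl2, a stem cell transcription factor, differed by −0.21 ± 0.64. Leaving out either adenoma sample left 11 Wnt targets called, and 10 (Apcdd1, Dkk2, Lgr5, Mmp7, Nkd1, Notum, Prox1, Sp5, Tcf7 and Tnfrsf19) were called in all 5 fits that left out 1 sample.

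The wider stem cell list was less uniform than the Wnt targets. Of 14 markers tested, 4 were higher (Tnfrsf19, Lgr5, Axin2 and Cdca7) and 1 lower (28.6% and 7.14%), with a median of 1.00. Tnfrsf19, Lgr5 and Axin2 were already counted among the Wnt targets. Tnfrsf19, a receptor of the tumor necrosis factor family, had levels of 2.13 and 2.58 in adenoma against −2.77, −2.75 and −2.47 in tumor-free epithelium, a rise of 5.02 ± 0.75. Msi1, an RNA-binding protein of stem cells, was lower by −3.45 ± 0.93, and this call was lost in all 5 fits that left out 1 sample (limma adjusted p of 0.056 to 0.216). Olfm4, a stem cell marker of the small intestine, was not above background in either group.

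The next list joins markers of Paneth cells, the antimicrobial secretory cells of the small intestine, and of deep crypt secretory cells of the colon. Of 8 of their marker genes tested, 5 were higher and none lower, with a median of 5.34, and 3 were higher without adenoma array 3. Lyz1, the Paneth lysozyme, was at 5.19 and 5.90 in adenoma and at 0.08, 0.79 and 0.77 in tumor-free epithelium, a rise of 5.0 ± 0.47 (limma adjusted p = 0.000243). Defa1, an alpha-defensin, was at 3.53 and 3.24 in adenoma and at −8.94, −8.42 and −8.44 in tumor-free epithelium, where no array detected it, and was at least 1040-fold higher in adenoma. The related probes Defcr6, Defa23 and Defcr4 were at least 1240-fold, 408-fold and 256-fold higher. Alpha-defensin genes are near-identical copies, so their probes may read each other's transcripts and do not count as separate findings. Pla2g2a, a secreted phospholipase, rose by 5.69 ± 0.94, and Itln1, an intelectin, by 6.01 ± 1.4 with tumor-free array 2 missing for an outlier flag. Mmp7 counts in this list and among the Wnt targets, and Pla2g2a in this list and in the prostaglandin pathway. The share of higher genes was 62.5%, against 4.11% of all features. Among the 7 members above background on every array of both groups, 4 were higher. Ang4, an antimicrobial ribonuclease, was at 4.98 and 5.37 in adenoma but at 5.91, −1.36 and −0.54 in tumor-free epithelium, so tumor-free array 1 lay above both adenomas. Reg4, a marker of deep crypt secretory cells in the colon, stood at 4.36 and 3.97 in adenoma and at 4.99, 3.64 and 4.78 in tumor-free epithelium, and the groups overlapped.

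Reg3g, a lectin of the same family as Reg3b, was at 5.91 and 5.59 in adenoma and at −8.34, −3.83 and −8.72 in tumor-free epithelium, a rise of 12.71 ± 2.10 (limma adjusted p = 0.00478). Tumor-free array 2 was higher than the other tumor-free samples. Reg3 genes are close relatives whose probes may also share signal.

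Cytokine, chemokine and acute-response genes had the highest median of the pathway lists, 4.25. Of 23 tested, 12 were higher in adenoma and none lower (52.2% higher). The summed level of the list, which follows its brightest genes, was 8.11 and 7.55 in adenoma and 7.27, 7.93 and 7.40 in tumor-free epithelium, and overlapped between groups. Of the 16 genes above background on every array of both groups, 6 were higher. Lcn2, an iron-sequestering antibacterial protein, had levels of 3.53 and 2.66 in adenoma against −7.01, −4.79 and −8.62 in tumor-free epithelium, a rise of 9.90 ± 1.12 (limma adjusted p = 0.000708). Il1b, the inflammatory cytokine interleukin 1 beta, was at 3.41 and 2.47 in adenoma and at −2.23, −3.45 and −4.18 in tumor-free epithelium, a rise of 6.23 ± 0.81. Both genes were separated by more than the spread within either group. Il6, a cytokine that drives acute-phase responses, was at 0.37 and −1.73 in adenoma and not well above background in tumor-free epithelium, at least 62.0-fold higher. The neutrophil attractant Cxcl2 was at least 30.5-fold higher. Cxcl1 and Cxcl5, which act on the same receptor, rose by 7.19 and 5.17, and the monocyte attractant Ccl2 by 6.96. The interleukin 33 receptor Il1rl1 and its ligand Il33 rose by 6.31 and 4.91. Tnf did not pass, with a difference of 2.67 (limma adjusted p = 0.151), and Nos2, the inducible nitric oxide synthase, was not above background in either group. Without adenoma arrays 1 and 2, 6 of the 12 were called, and Cxcl2, Il1a, Il1b, Il33, Il6 and Lcn2 were called in all 5 fits that left out 1 sample.

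Of 10 neutrophil markers tested, 9 were higher in adenoma, with a median of 5.45. Only 2 were above background on every array of both groups, 1 of them higher, so the other 8 entered through adenoma alone and their count is a description. The summed level of the list was 4.63 and 4.44 (log2) in adenoma against −1.36, −1.58 and −2.30 in tumor-free epithelium. S100a8, a calcium-binding protein abundant in neutrophils, was at 1.84 and 1.05 in adenoma and at −5.89, −8.48 and −6.57 in tumor-free epithelium, a rise of 8.42 ± 0.85 (limma adjusted p = 0.000358). S100a9, its partner, rose by 9.0 ± 1.4, with tumor-free levels of −2.87, −8.51 and −3.73. The granule collagenase Mmp8 was at least 11.8-fold higher, the chemokine receptor Cxcr2 at least 8.43-fold and the resistin-like Retnlg at least 36.0-fold. Mpo, the granule peroxidase, differed by −0.46 (limma adjusted p = 0.609), while Elane and Ngp were not above background in either group. In these dissected tissues more cells of a type and more RNA per cell cannot be told apart, and the part of neutrophils in the cytokine result was not tested.

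**Figure D2:**
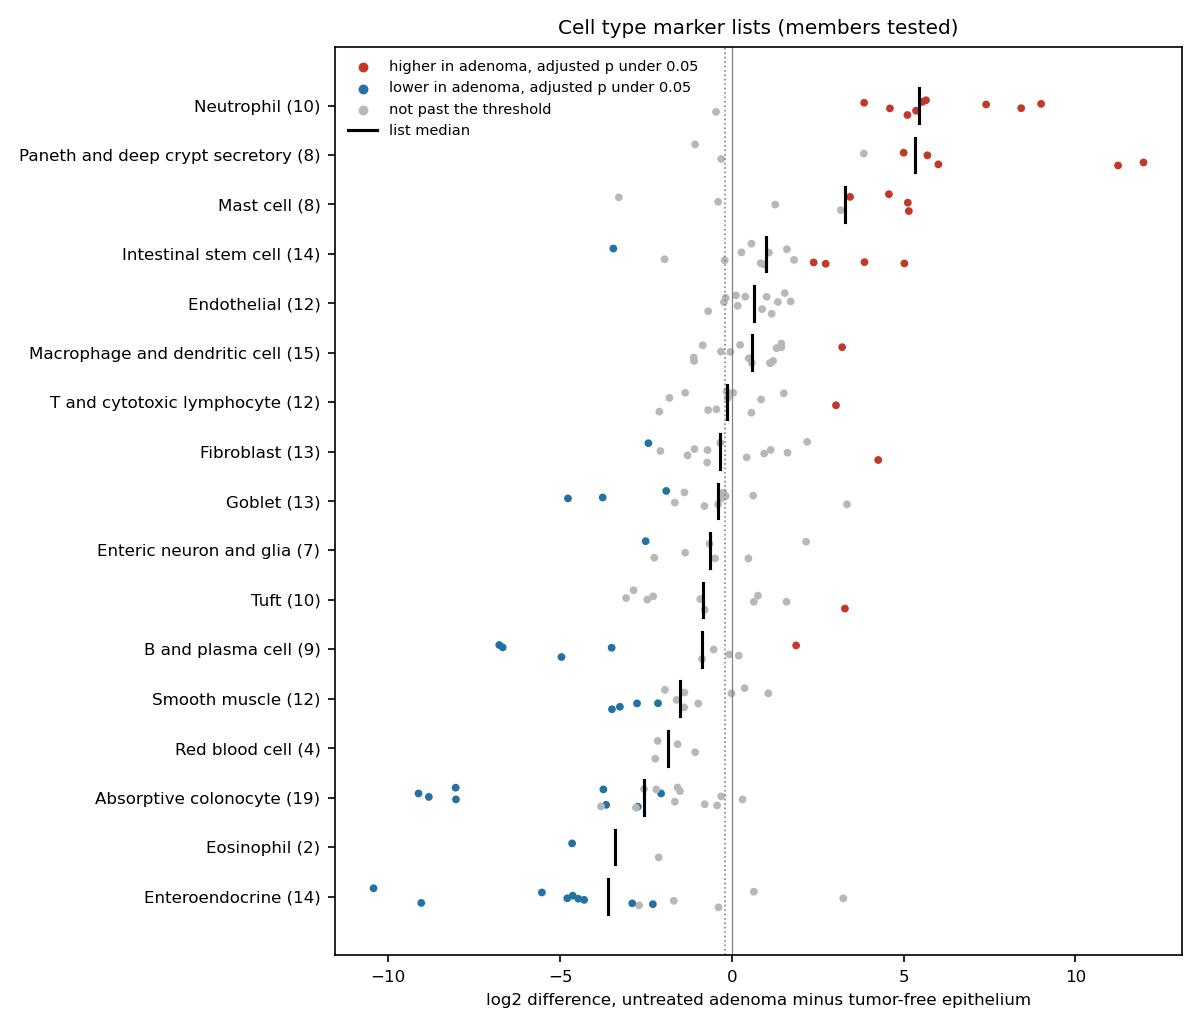
Log2 difference, untreated adenoma minus tumor-free epithelium (horizontal axis), for each tested member of 17 cell type marker lists, with the number tested in brackets. Red points were higher and blue points lower at a limma adjusted p under 0.05, grey points did not pass, black bars are list medians and the dotted line is the median of all features at −0.20; neutrophil, Paneth and mast cell lists lie to the right and enteroendocrine, eosinophil and absorptive lists to the left.

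Mast cell proteases were the other blood cell genes on the high side. Of 8 markers tested 4 were higher, Mcpt1, Mcpt2, Mcpt4 and Tpsab1, with a median of 3.30. Negative differences were seen in 2 of the 8, down to −3.29, without passing. Of the 4 markers above background on every array of both groups, 2 were higher. The summed level of the list was 2.20 and 2.23 in adenoma and 1.29, 0.71 and 0.33 in tumor-free epithelium. Mcpt4, a chymase, was at 0.31 and −0.53 in adenoma and at −5.15, −4.72 and −4.16 in tumor-free epithelium, a rise of 4.57 ± 0.89 (limma adjusted p = 0.0108). Without adenoma arrays 1 and 2 only Mcpt2 was called, and without adenoma array 3 there were 2 calls. The macrophage and dendritic cell list had 1 of 15 higher, the scavenger receptor Marco (3.21 ± 0.42), and a median of 0.58. Its share of higher genes was 6.67%, and that of the lymphocyte list 8.33%. Over all features 4.11% were higher and 5.63% lower, so such single calls say little about a list. The lymphocyte list had 1 of 12 higher, the protease gene Gzmb, and this call was lost without either adenoma sample, tumor-free array 2, or tumor-free arrays 3 and 4. None of 12 endothelial markers passed, with a median of 0.63. Among 13 fibroblast markers, Fn1 (fibronectin) rose by 4.26 and the protease Fap fell by 2.43, a share of 7.69% each way. The collagens Col1a1, Col1a2 and Col3a1 differed by −1.29, −0.71 and −0.34 without passing. The Fn1 and Fap calls were lost without either adenoma sample. Avil, an actin-binding protein of tuft cells, rose by 3.29 (1 of 10 tuft markers), a call lost without adenoma array 3. The tuft list as a whole had a median of −0.85, with 6 of 10 differences negative and no gene called lower. Its share of higher genes was 10%, against 4.11% of all features. Prg2, an eosinophil granule protein, was at least 9.99-fold lower.

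Of 21 enzymes and proteins of matrix remodelling tested, 10 rose in adenoma and none fell, with a median of 1.48, and 6 did so without adenoma array 3. Spp1, which encodes osteopontin, a secreted matrix and cytokine-like protein, had levels of 3.71 and 5.56 in adenoma against −6.03, −7.10 and −7.79 in tumor-free epithelium, a rise of 11.61 ± 0.64 (limma adjusted p = 1.33e-05). Mmp10, a stromelysin, was at 5.80 and 5.82 in adenoma and at 0.08, 0.08 and −1.17 in tumor-free epithelium, a rise of 6.15 ± 0.56. Mmp13, a collagenase, was at 4.45 and 3.49 against −1.79, −4.68 and −3.33, a rise of 7.24 ± 1.15. In all 3 genes the groups were well apart. Among the 18 list members above background on every array of both groups, 7 were higher. Thbs2, a thrombospondin, rose by 4.86 ± 0.53, and the protease inhibitor Timp1 by 3.19. Structural matrix genes of the list did not pass: Sparc differed by −0.72 and Postn, which encodes periostin, by −1.47.

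Markers of fetal and regenerating epithelium gave 6 higher genes of 19 tested and none lower, with a median of 2.00. Among the 16 above background on every array of both groups, 4 were higher. Spp1 and Il33 belong to this list as well as to those above. Krt17, a keratin of stratified and injured epithelia, was at 4.01 and 4.50 in adenoma and at −3.08, −2.76 and −3.70 in tumor-free epithelium, a rise of 7.43 ± 0.54 (limma adjusted p = 5.62e-05). Clu, which encodes clusterin, rose by 4.51 ± 0.64. Other members showed no such difference: Ly6a differed by −0.55 (limma adjusted p = 0.743) and Anxa1 by 0.49 (limma adjusted p = 0.6).

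Most proliferation genes did not pass. Of 34 tested 3 were higher, Rrm2, Ccne1 and Mcm4, and none was lower (8.82% higher, against 4.11% of all features). A positive difference was seen in 31 of 34, and the median was 1.21. Mki67, the marker of dividing cells, was at 4.37 and 3.60 in adenoma and at 4.68, 3.76 and 4.74 in tumor-free epithelium, and the groups overlapped (limma adjusted p = 0.65). Rrm2, a subunit of ribonucleotide reductase, rose by 2.09 ± 0.54, Ccne1, cyclin E1, by 1.87 ± 0.48, and Mcm4, part of the replicative helicase, by 1.63 ± 0.41. No cell cycle gene was called once any 1 of the 5 samples was left out.

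**Figure D3:**
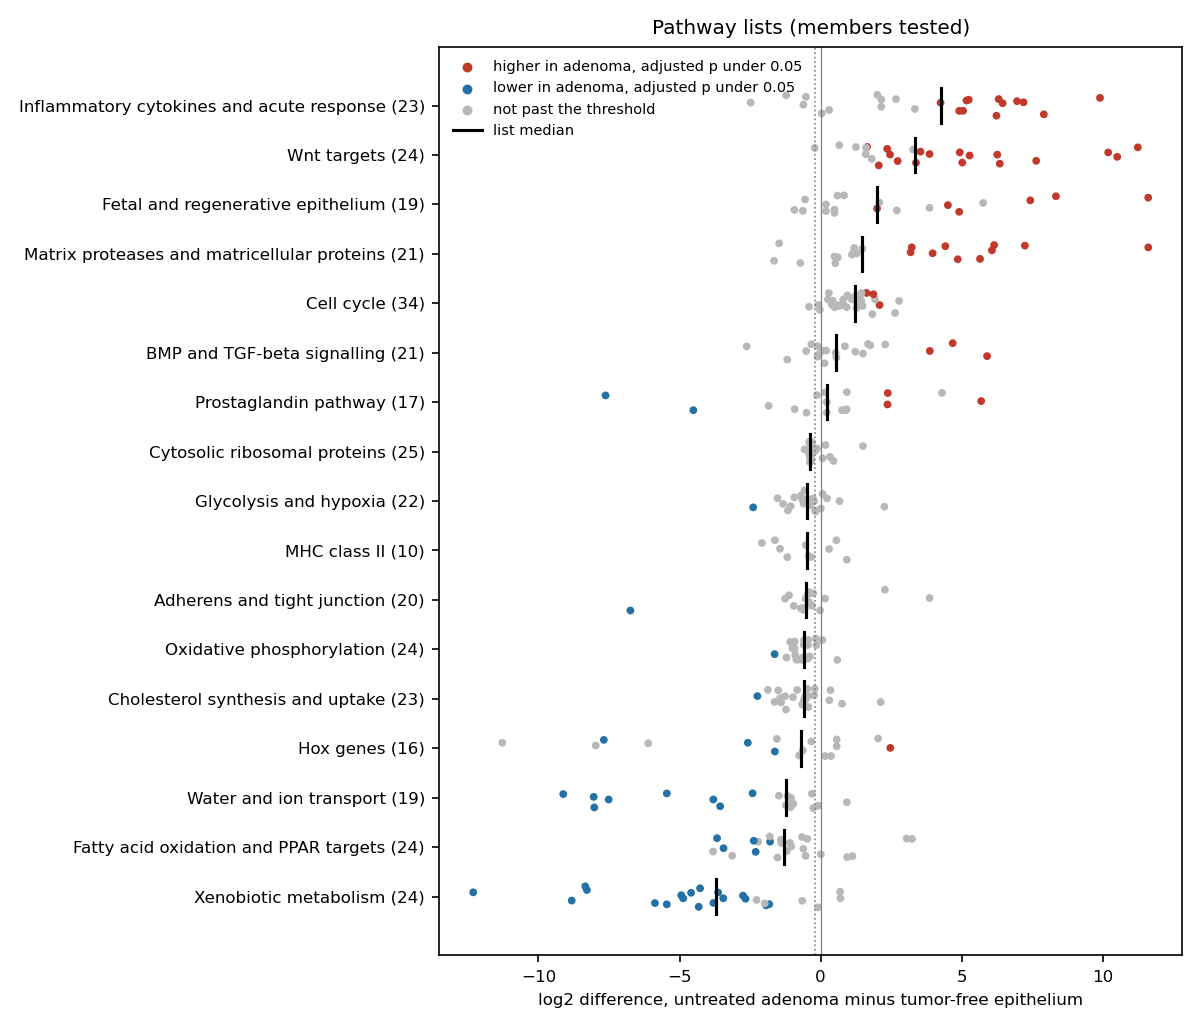
Log2 difference, untreated adenoma minus tumor-free epithelium (horizontal axis), for each tested member of 17 pathway lists, with the number tested in brackets. Colours, black bars and the dotted line are as in the plot of cell type lists; Wnt, inflammatory, fetal and matrix lists extend to the right, xenobiotic, fatty acid and ion transport lists to the left, and ribosomal, MHC class II and respiratory genes stay near the median of all features.

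Among the regulators of BMP and TGF-beta signalling, 3 of 21 were higher and none lower (14.3% higher, against 4.11% of all features). All 3 are secreted: Grem1 (gremlin, a BMP antagonist), Fst (follistatin, an activin antagonist) and Inhba (the activin A subunit). Grem1 had levels of 2.45 and 2.03 in adenoma against −2.70, −3.14 and −5.13 in tumor-free epithelium, a rise of 5.90 ± 0.98 (limma adjusted p = 0.00482). Inhba rose by 4.68 ± 0.92 and Fst by 3.87 ± 0.69. Without adenoma arrays 1 and 2 only Grem1 was called. The BMP target Id1 differed by −0.11 and the ligand Bmp4 by −0.11, neither passing.

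In the prostaglandin pathway, a degrading enzyme and a receptor were lower. Of its members 11.8% were lower and 17.6% higher, against 5.63% and 4.11% of all features. Hpgd, the dehydrogenase that inactivates prostaglandin E2, had levels of −1.91 and −1.48 in adenoma against 2.61, 2.58 and 3.25 in tumor-free epithelium, and fell by 4.51 ± 0.61 on the log2 scale (limma adjusted p = 0.00165). Ptger3, a prostaglandin E receptor, was at −7.00 and −9.07 in adenoma and at −1.10, 0.53 and −0.68 in tumor-free epithelium, a difference of −7.62 ± 0.87. Both calls held whichever sample was left out. With the median of all probes of a gene, the Ptger3 difference was −2.58 and no longer passed (limma adjusted p = 0.0733). Ptgs2, which encodes cyclooxygenase 2, the target of sulindac, was at 1.26 and −0.37 in adenoma and at −2.03, −5.78 and −3.75 in tumor-free epithelium; the groups did not overlap, but the difference of 4.30 ± 1.2 missed the threshold (limma adjusted p = 0.0511). It passed under 13 of 25 alternatives, with limma adjusted p-values of 0.000651 to 0.268 over all of them. In all, 3 of 17 members were higher (Pla2g2a, Ptgds and Ptgir) and 2 lower, and without adenoma array 3 none of the higher calls remained, while without adenoma arrays 1 and 2 there was 1.

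Detoxifying enzymes had the most lower genes of any list here. Of 24 tested, 18 were lower in adenoma and none higher (75% lower, against 5.63% of all features), with a median of −3.72. Among the 22 above background on every array of both groups, 15 were lower. Cyp2f2, a cytochrome P450, was at −8.56 and −9.25 in adenoma, where no array detected it, and at 2.37, 4.15 and 3.69 in tumor-free epithelium, at least 1080-fold lower. Sult1a1, a sulfotransferase of phenols, was at −3.16 and −3.62 in adenoma and at 4.68, 4.89 and 5.09 in tumor-free epithelium, a difference of −8.28 ± 0.59 (limma adjusted p = 4.82e-05). Cyp2c55, a P450 of the colon epithelium, was at −6.22 and −5.99 in adenoma and at 2.72, 1.53 and 3.89 in tumor-free epithelium, a difference of −8.82 ± 0.74. In each of these the adenoma samples lay close together and far below all tumor-free samples. The alcohol dehydrogenase Adh1 fell by 4.87 and the retinaldehyde dehydrogenase Aldh1a1 by 4.27, while the drug efflux pumps Abcb1a and Abcg2 fell by 3.80 and 3.63. Nqo1, a quinone reductase, was at 0.93 and 1.38 in adenoma and at 1.4, 0.96 and 1.37 in tumor-free epithelium, and the groups overlapped. Without adenoma array 3 there were 7 lower genes, without adenoma arrays 1 and 2 there were 11, and Adh1, Aldh1a1, Cyp2c55, Cyp2f2, Cyp3a13, Sult1a1 and Sult1c2 were called in all 5 fits.

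Of 19 absorptive markers 8 were lower and none higher (42.1%, against 5.63% of all features), median −2.56. Of 19 water and ion transport genes 8 were lower and none higher, median −1.23. Above background on every array of both groups were 17 absorptive markers, 6 of them lower, and 17 transport genes, 7 of them lower. Slc26a3 and Aqp8 count in both lists, and Cyp2c55 in the absorptive list and among the detoxifying enzymes. Slc26a3, the chloride-bicarbonate exchanger of surface colonocytes, was at −1.83 and −4.51 in adenoma and at 5.64, 6.33 and 5.87 in tumor-free epithelium, a difference of −9.12 ± 0.83 (limma adjusted p = 0.000206). Best2, a chloride channel of colonic goblet cells, was at −4.99 and −3.49 against 2.78, 4.11 and 2.91, a difference of −7.51 ± 1.11. Scnn1a, the alpha subunit of the epithelial sodium channel, was at 0.35 and −2.97 against 4.12, 3.81 and 4.47, a difference of −5.45 ± 0.89. Its beta and gamma subunits Scnn1b and Scnn1g differed by −1.48 and −1.17 and did not pass. The structural brush border gene Vil1 (villin) and the chloride channel gene Cftr differed by −0.79 and −0.97, also without passing. Cldn8, a claudin that seals sodium paths in the distal colon, was the 1 called gene of 20 junction genes (5% lower, against 5.63% of all features). Its levels were −2.67 and −3.47 in adenoma against 3.66, 3.58 and 3.78 in tumor-free epithelium (−6.74 ± 0.78, limma adjusted p = 0.000783). Without adenoma array 3 the calls were 3 absorptive and 4 transport genes.

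Of 14 enteroendocrine markers tested, 9 were lower and none higher (64.3% lower, against 5.63% of all features), with a median of −3.60. Among the 9 above background on every array of both groups, 6 were lower, and the others entered through a single group. The summed levels of the list were 2.06 and 3.21 in adenoma against 7.33, 7.34 and 6.86 in tumor-free epithelium. Insl5, a hormone of colonic L cells, was at −4.62 and −3.99 in adenoma and at 4.71, 4.64 and 4.86 in tumor-free epithelium, a difference of −9.04 ± 0.48 (limma adjusted p = 1.18e-05). Gcg, the proglucagon gene of the same cells, was at −7.70 and −7.83 in adenoma and at 2.59, 2.51 and 2.89 in tumor-free epithelium, a fitted difference of −10.43 ± 0.66 (limma adjusted p = 2.3e-05). This Gcg probe was well above background on no adenoma array, so its adenoma level is only a limit, and with the median of all probes of the gene the difference was −5.63. For both hormones all adenoma samples lay below all tumor-free samples. Pyy, another L cell hormone, was at −0.35 and 2.70 in adenoma and at 6.04, 6.4 and 5.45 in tumor-free epithelium. Tph1, which makes serotonin in enterochromaffin cells, fell by 4.63 ± 0.50 (a difference of −2.45 with the median of its probes), the granule protein Chga by 4.30 ± 0.50 and somatostatin, Sst, by 4.47. The serotonin transporter Slc6a4 fell by 8.31 ± 0.97. Neurog3, the factor that starts the endocrine lineage, differed by −0.39 (limma adjusted p = 0.632). Chga, Gcg, Insl5, Pyy and Tph1 were called in all 5 fits that left out 1 sample.

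Goblet cell genes differed among themselves. Muc2, the main mucin of colonic mucus, was at 4.27 and 5.92 in adenoma and at 4.37, 5.29 and 6.17 in tumor-free epithelium, and the groups overlapped (−0.18 ± 1.00, limma adjusted p = 0.931). Clca1, a mucus-processing protease, was at 3.01 and 0.58 in adenoma and at 6.75, 6.70 and 6.25 in tumor-free epithelium, a difference of −4.77 ± 0.63 (limma adjusted p = 0.00156). Zg16, a lectin of the mucus, was at 4.51 and 1.25 against 6.81, 6.77 and 6.34, a difference of −3.76 ± 0.93. With Creb3l1, 3 of 13 were lower and none higher (23.1% lower, against 5.63% of all features), median −0.40. Without adenoma array 3, tumor-free array 2, or tumor-free arrays 3 and 4, 1 goblet gene was called.

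Of 9 B and plasma cell markers tested, 4 were lower (Jchain, Tnfrsf17, Mzb1 and Pou2af1) and 1 higher, with a median of −0.87. The summed level of the list was 4.78 and 5.58 in adenoma and 5.61, 5.19 and 5.22 in tumor-free epithelium, and overlapped between groups. Jchain, the chain that joins IgA units, was at −3.61 and −1.10 in adenoma and at 4.71, 4.10 and 4.42 in tumor-free epithelium, a difference of −6.77 ± 0.69 (limma adjusted p = 0.00036). Tnfrsf17, a plasma cell survival receptor, fell by 6.67 ± 0.82 and Mzb1, an endoplasmic reticulum protein of plasma cells, by 4.96 ± 0.51. The B cell surface gene Cd22 differed by −0.08 and did not pass, and Sdc1, a marker of plasma cells that epithelial cells express too, rose by 1.87, a call lost whichever sample was left out. Of 12 smooth muscle genes 4 were lower (Lmod1, Cnn1, Myh11 and Myl9), with summed levels of 4.25 and 4.35 in adenoma and 5.67, 6.47 and 5.45 in tumor-free epithelium. Leaving out either adenoma sample or tumor-free array 2 left 2 smooth muscle calls. The shares of plasma and muscle cells in the dissected material were not tested. Red blood cell genes differed more between samples than between groups, with summed levels of 0.44 and 4.10 in adenoma and 2.73, 5.01 and 3.91 in tumor-free epithelium.

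Of 24 genes of fatty acid oxidation and PPAR signalling 5 were lower (Cd36, Ppargc1a, Cpt1a, Ehhadh and Acadm), median −1.30, but leaving out 1 sample left between 0 and 2 of them called. Cpt1a, the enzyme that passes fatty acids into mitochondria, was at 2.28 and 1.00 in adenoma and at 3.99, 3.69 and 4.36 in tumor-free epithelium, a difference of −2.37 ± 0.55 (limma adjusted p = 0.0231). Hk1, a hexokinase, was the 1 called gene of 22 of glycolysis and hypoxia (4.55%), and Ndufb9 the 1 called gene of 24 of the respiratory chain (4.17%). Both were lower, as were 5.63% of all features. The Ndufb9 call was lost whichever sample was left out, and the Hk1 call without adenoma array 3, tumor-free array 1 or tumor-free array 2. None of 25 ribosomal protein genes and none of 10 MHC class II genes passed, with medians of −0.36 and −0.48.

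Cholesterol synthesis is the pathway that atorvastatin blocks, and here only the tumor-free mice had received the drug. Of 23 genes tested 1 was lower in adenoma and none higher (4.35% lower, against 5.63% of all features), with a median of −0.60. Dhcr7, the last enzyme of cholesterol synthesis, was at 2.20 and 2.08 in adenoma and at 4.02, 4.67 and 4.44 in tumor-free epithelium, a difference of −2.24 ± 0.47 (limma adjusted p = 0.0147). This call was lost without either adenoma sample or tumor-free array 2. Hmgcs1, an early enzyme of the pathway, was at 4.86 and 4.35 in adenoma and at 6.49, 6.26 and 5.39 in tumor-free epithelium. Adenoma lay below all tumor-free samples, as in 5532 of 18605 features tested, without passing (limma adjusted p = 0.0887). The parts of the drug and of the tissue in these values cannot be told apart.

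**Figure D4:**
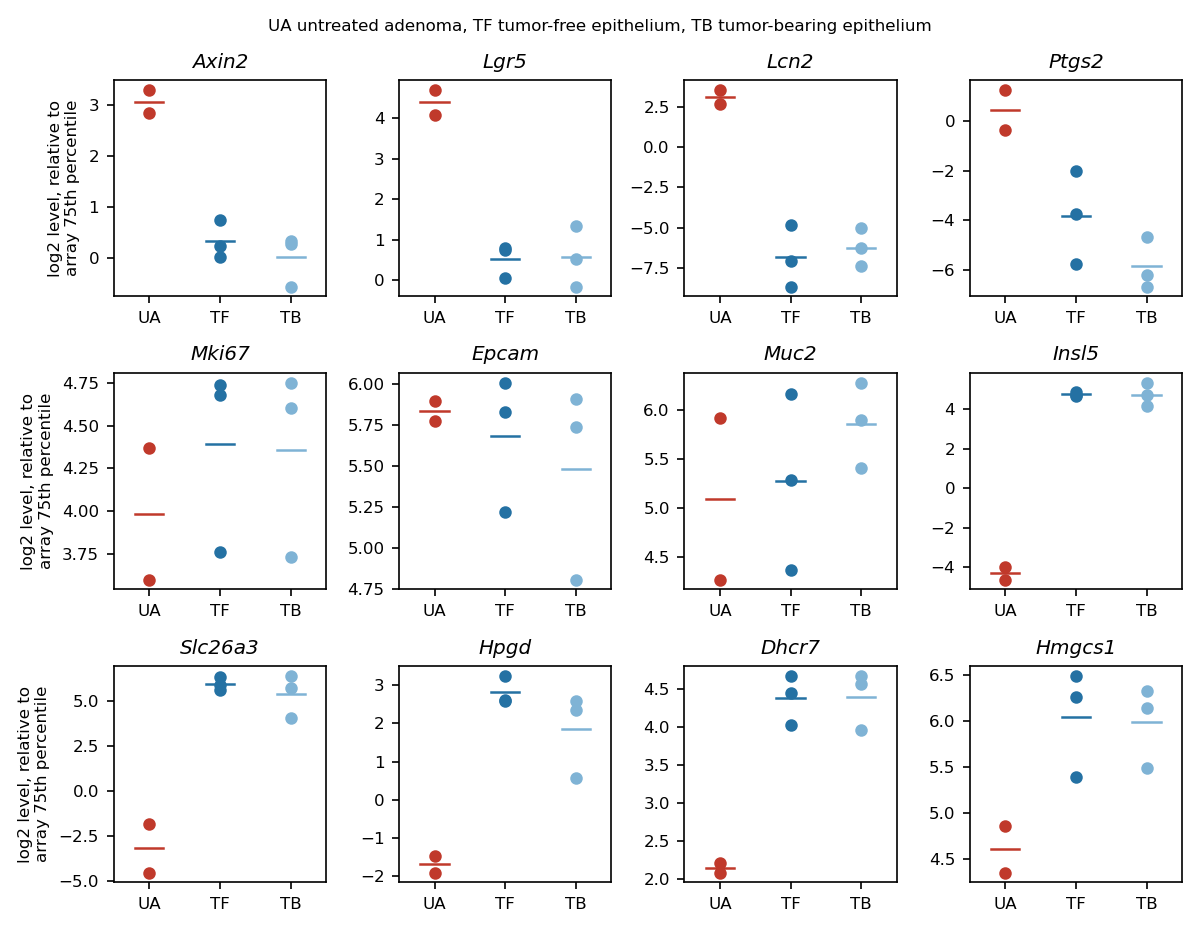
Log2 level relative to the array 75th percentile (vertical axis, scaled per gene) of 12 genes in untreated adenoma (UA, 2 samples), epithelium of tumor-free mice (TF, 3 samples) and epithelium of tumor-bearing mice (TB, 3 samples). Points are samples and lines are group means; for Axin2, Lgr5, Lcn2, Insl5, Slc26a3 and Hpgd the adenoma samples stand apart from both epithelia, while for Mki67, Epcam and Muc2 the groups overlap.

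The same adenoma samples were also set against normal epithelium of tumor-bearing mice, labelled as atorvastatin-treated, although the study's protocol lists other treatments for tumor-bearing mice. In that comparison 925 of 17395 features were higher (5.32%) and 1157 lower (6.65%). Both comparisons share the adenoma samples, and array 2 of each epithelium is near-identical, so their agreement is no independent support. Differences from tumor-bearing and from tumor-free epithelium were 9.86 and 11.24 for Mmp7, 3.83 and 3.86 for Lgr5, 9.30 and 9.90 for Lcn2, and −9.03 and −9.04 for Insl5. Ptgs2, which missed the threshold against tumor-free epithelium, passed against tumor-bearing epithelium, with 6.31 (limma adjusted p = 0.00897). The difference between the 2 comparisons was not tested.

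The 2 adenoma samples disagreed on some genes. Their gap exceeded 3 on the log2 scale for 26 called and 166 tested features, against a median gap of 0.54. Hoxb13, a homeobox gene of the distal colon, was at −7.23 and 1.44 in adenoma and at 4.49, 5.27 and 4.61 in tumor-free epithelium, below all tumor-free samples in both adenomas but far apart between them (−7.68 ± 2.08, limma adjusted p = 0.045). This call was lost without adenoma arrays 1 and 2, any of the tumor-free samples, or the near-identical arrays of different label, without which no Hox gene was called. Car4, a carbonic anhydrase of surface colonocytes, was at 0.35 and −5.89 in adenoma and at 4.11, 5.63 and 6.01 in tumor-free epithelium. Aqp8, a water channel of the same cells, was at 0.59 and −4.09 against 6.38, 6.4 and 6.10. The sample of arrays 1 and 2 was thus lower for Hoxb13 and Pyy, and array 3 lower for Car4, Aqp8, Scnn1a, Krt20 and Zg16. Other distal Hox genes were well above background on no adenoma array and did not pass: Hoxd13 at −8.10 and −8.74 in adenoma against 1.30, 4.06 and 3.22 in tumor-free epithelium (limma adjusted p = 0.0628), Hoxd10 (limma adjusted p = 0.0927) and Hoxd11 (limma adjusted p = 0.0657). Of 16 Hox genes tested, 1 was higher, Hoxa10 (2.47 ± 0.50), and 3 lower, Hoxb13, Hoxb9 and Hoxa13. These are 6.25% and 18.8%, against 4.11% higher and 5.63% lower over all features. Among the 11 above background on every array of both groups, 1 was higher and 1 lower. The Hoxb9 and Hoxa13 calls were lost whichever sample was left out, and the Hoxa10 call without adenoma array 3 or tumor-free array 2. The labels used here do not place the samples along the colon, and position was not tested.

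**Figure D5:**
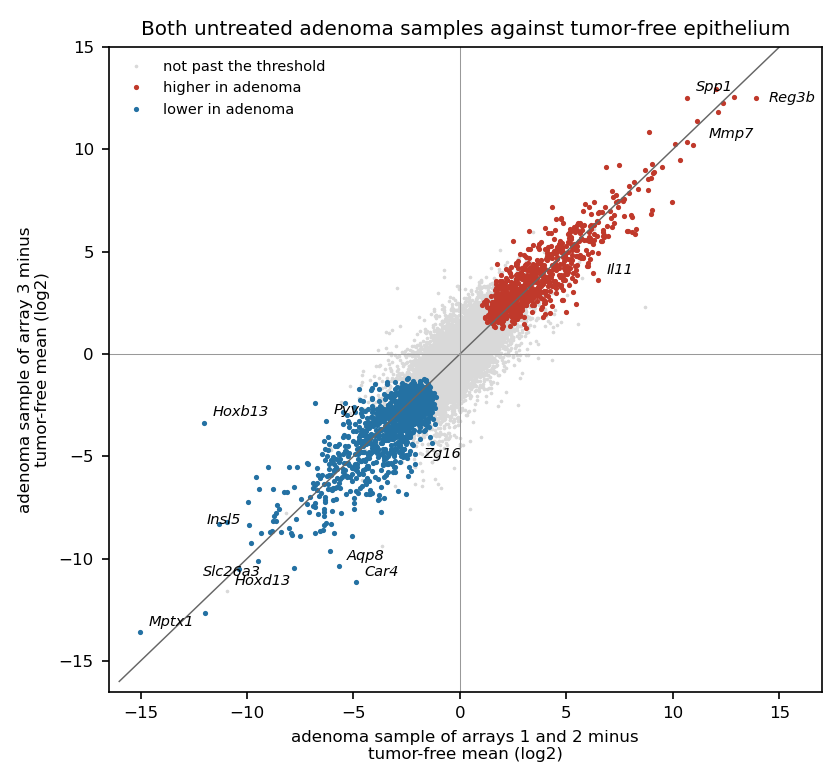
Log2 difference from the tumor-free mean for the adenoma sample of arrays 1 and 2 (horizontal axis) and for adenoma array 3 (vertical axis), 1 point per tested feature. Red points were higher and blue points lower in adenoma at a limma adjusted p under 0.05, grey points did not pass, and the diagonal marks equal differences; the median gap between both adenomas was 0.63 for called genes, and Hoxb13 lies above and Car4 and Aqp8 below.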

How the data were processed

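The deposited scanner files hold, per spot, a processed intensity, made per the file headers by background subtraction with spatial detrending in Agilent Feature Extraction 9.5.3, the version in the submitters' processing notes, and not normalized between arrays. The authors' deposited value table holds log2 values on a common distribution and served as an alternative. Here each processed intensity was log2-transformed and its array's 75th percentile over non-control spots was subtracted. Control spots and outlier-flagged spots were left out, spots of 1 probe were averaged, and the brightest probe of a gene was used, giving 27751 features. Gene names came from the RefSeq table of GRCm38.p6 by accession (22944 probes) or symbol, and otherwise from the file, and 6444 probes stayed unnamed. Another probe of the same gene, where above background, had the same sign in 93.1% of 591 cases.

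Arrays of 1 group that differed by less than the spot noise were averaged. Groups were fitted with limma 3.58.1 (R 4.3.3) on all 10 distinct samples of the 4 groups, two-sided (residual degrees of freedom 6, prior 4), and adjusted by Benjamini-Hochberg. Features entered if all arrays of adenoma or all of tumor-free epithelium were well above background, and 37 of them lacked a sample. "At least" folds compare the bright group with the detection limit. Standard errors are those of the fit. The fit was tested on simulated data. The number of arrays limits precision, p-values measure the spread between these samples, which may be technical, and same-numbered arrays did not deviate together (correlations of 0.14, −0.14 and −0.07).

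The members, gene lists and tests were chosen with earlier results of these data known. Named genes are the 10 largest rises and falls measured in both groups, the 6 highest bounds each way, for every list and direction the 3 called members with the strongest moderated t, and 20 fixed genes. Unnamed probes and predicted genes were left out of that choice, and other members are named to show a list's range. Normalization, filters, blocks and left-out arrays were varied in 25 alternatives. Some members of the lists are counted but not reported here by name.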

Additional observations from a re-analysis of the deposited data

How the results depend on the processing

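Every called gene named by the rule kept its direction under every alternative that gave a value (2136 of 2327 values stayed past the threshold). The counts moved more. The higher and lower calls were 765 and 1047 as reported, 2085 and 2981 with each array as its own sample, 1878 and 2755 with scan date and 1989 and 3006 with slide as a random block on separate arrays, and 2186 and 3310 with the replicate block on separate arrays, all of which count near-identical arrays as separate samples. They were 1149 and 1764 with array weights, 453 and 694 for features above background on every array of both groups, 495 and 569 without the near-identical pair across groups, and 442 and 519 without adenoma arrays 1 and 2. Leaving out 1 array gave 290 to 802 higher and 274 to 1054 lower genes, the lowest without adenoma array 3, and 695 and 594 lower genes without tumor-free arrays 1 and 2. A fixed block for scan date was not run, since no date held both groups. With adenoma down to 1 sample, that sample was assumed to vary like the other groups. The median of all features, −0.20 as reported, was −0.08 with the authors' table and −0.09 with quantile normalization. List medians moved by less than 1 on the log2 scale in 852 of 874 values. For features above background in both groups the medians fell to 2.41 for inflammatory genes, 2.54 for neutrophil genes (2 genes) and 0.72 for fetal genes, and the eosinophil median, over 2 genes, was −0.19 without adenoma array 3. Values near the detection limit have no order. A p-value that misses the threshold does not show that levels were alike, least of all for small differences between so few samples.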

Other observations

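The following families were picked after their values had been seen, by the start of the gene symbol, and are given as values. Some members entered the test through their brighter group alone, so the counts of called genes are descriptions. Of 15 Wnt ligand genes tested, 7 were higher in untreated adenoma and none lower, with a median difference of 1.78 (log2) against −0.20 over all features. Of the 7, only Wnt11 and Wnt6 were well above background on every tumor-free array. The others entered through adenoma alone and had to differ. Wnt3, a ligand known to be made by Paneth cells in the small intestine, was at 1.34 and 1.58 in adenoma and at −5.06, −8.02 and −6.79 in tumor-free epithelium. Wnt10a rose by 6.19 ± 0.65 (SE; limma adjusted p = 0.000462). Of 27 keratin genes 7 were higher and 1 lower, against 4.11% higher and 5.63% lower over all features. The lower 1, Krt12, was at least 5.31-fold lower. Keratins of hair and stratified epithelium were among the higher ones. Krt36, a hair keratin, was at 2.56 and 3.37 in adenoma against −2.62, −2.69 and −3.55, and Krt14, a keratin of basal cells, rose by 3.96 ± 0.72. The forkhead factors Foxc1 and Foxc2 rose by 7.00 and 4.90, while Foxp2 fell by 5.19 and Foxa2 by 2.49. In these the groups did not overlap, as in every called feature and in 47.9% of all features tested.

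On the low side, 9 of 12 carboxylesterases were lower and none higher, with a median of −4.63; Ces2c, an esterase that cleaves drugs and lipids, was at −0.44 and −1.02 in adenoma and at 5.31, 5.93 and 5.48 in tumor-free epithelium. Of 27 genes of cytochrome P450 family 2, 16 were lower and 1, Cyp2b9, higher, and of 20 immunoglobulin probes 15 were lower. Members of these 3 families are close in sequence and their probes may share signal. Among solute carriers 28 of 267 were lower and 15 higher, against 5.63% lower and 4.11% higher over all features. Slc5a8, the transporter of short-chain fatty acids in colonocytes, was at −2.63 and −3.77 in adenoma and at 3.54, 4.19 and 4.39 in tumor-free epithelium. Slc38a4, an amino acid transporter, was at 3.19 and 4.08 in adenoma and at −9.18, −8.66 and −8.70 in tumor-free epithelium, where this probe was well above background on no array and the level is only a limit. Of the water channels, Aqp5, known from glands, was at least 38.8-fold higher while Aqp8 and Aqp4 fell by 8.04 and 3.80.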
